A study of Caenorhabditis elegans with 12 samples.

Results

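The data compared here are 6 Affymetrix expression arrays of whole Caenorhabditis elegans, 3 from worms given RNA interference (RNAi) against hsp-6 and hsf-1 together and 3 from worms given RNAi against hsp-6 and dve-1 together. They were taken by their sample labels from a series of 12 arrays, in which 3 empty vector arrays and 3 hsp-6 RNAi arrays make up the other groups. Of the 22625 probe sets on the array, the 12057 that were no controls and had a log2 level above 4 in at least 3 of the 12 arrays were tested, and they stood for 9172 genes with exactly 1 symbol. All groups were of the wild-type strain N2, synchronized and placed on HT115 RNAi bacteria at day 1 of adulthood, and RNA was taken from day 3 adults after 3 days of RNAi, with eggs and larvae rinsed off during that time. The groups are labelled HSP-6;HSF-1 and HSP-6;DVE-1 and are called hsf-1 double RNAi and dve-1-labelled arrays here. Both therefore carried the hsp-6 RNAi, and the comparison asks where adding hsf-1 RNAi and adding dve-1 RNAi gave different transcript levels. RNAi by feeding acts on the whole animal and lowers a transcript without deleting its gene, and the labels do not say how the 2 RNAi bacteria were combined. The labels do not say whether arrays of a group came from separate cultures, so the p-values measure only the spread between arrays. That spread was pooled over all 12 arrays of the series. Differences are given as the log2 level in hsf-1 double RNAi minus that in the dve-1-labelled arrays, so a negative value means a higher level in the latter. Levels are listed for replicates 1, 2 and 3 in that order.

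HSP-6 is the mitochondrial Hsp70 chaperone, which takes part in protein import and folding in the mitochondrial matrix, and its loss induces stress programmes in the nucleus. DVE-1 is a homeodomain protein that moves to the nucleus and binds chaperone gene promoters in the mitochondrial unfolded protein response. HSF-1 is the heat shock transcription factor and drives cytosolic chaperone genes such as hsp-70 and the small hsp-16 genes. The intracellular pathogen response, which appears among the genes below, is a set of genes that worms induce on infection of the intestine by microsporidia or the Orsay virus and on some forms of proteotoxic stress.

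The transcripts of the targeted genes were examined first, as a check of the labels. The dve-1 transcript, by probe set 175379_at, read 6.25, 5.87 and 8.18 in hsf-1 double RNAi and 8.15, 8.90 and 7.14 in the dve-1-labelled arrays. It was therefore higher on average in the arrays whose label names dve-1 as the target, and hsf-1 double RNAi replicate 3 lay within their range. All 6 empty vector and hsp-6 RNAi arrays lay below every double RNAi array, between 5.09 and 5.83. The log2 difference was -1.30 (SE 0.57), with a limma adjusted p of 1, and the second dve-1 probe set, 185625_at, differed by -0.02. The difference of 175379_at moved to -0.85 when replicate 2 of hsf-1 double RNAi was left out and to -2.0 when its replicate 3 was, and it was -1.80 (adjusted p 0.0271) with array weights estimated gene by gene, a fit chosen after seeing the data. The hsf-1 transcript, by probe set 191962_s_at, read 6.84, 7.24 and 6.68 in hsf-1 double RNAi and 8.12, 6.87 and 8.04 in the dve-1-labelled arrays. The direction of the means was that of the labels, but replicate 2 of the dve-1-labelled arrays lay among the hsf-1 double RNAi arrays. The difference was -0.75 (SE 0.32) with an adjusted p of 1, and the second hsf-1 probe set gave -0.44. The difference of 191962_s_at was -1.16 without dve-1-labelled replicate 2 and -1.14 (adjusted p 0.0151) with gene-by-gene array weights. The shared target hsp-6, by probe set 174618_at, read 10.08, 9.29 and 9.52 in hsf-1 double RNAi and 10.26, 10.06 and 9.13 in the dve-1-labelled arrays. These ranges overlapped, with a difference of -0.19 (SE 0.30). Empty vector arrays were at 10.96 to 11.30 and hsp-6 RNAi arrays at 6.60 to 6.97, so the hsp-6 transcript lay between them in all 6 double RNAi arrays, with means of 9.63 and 9.82 against 6.84 in hsp-6 RNAi. The position of the probes relative to the RNAi trigger sequences was not tested. Because the dve-1 transcript went against its label, that group is named throughout by its label alone. Whether labels were exchanged between arrays was not tested, and the direction of every difference given here rests on the labels as deposited.

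The arrays did not sort by group. For all 6 arrays the nearest of the other 5 belonged to the other group, by the root mean square log2 distance over the tested probe sets. The closest pairs were hsf-1 double RNAi replicate 1 with dve-1-labelled replicate 1 at 0.45, replicate 3 with replicate 2 at 0.53, and replicate 2 with replicate 3 at 0.55. Pairs within a group ranged from 0.68 to 1.16 and pairs between groups from 0.45 to 1.34. Of the variance over the 6 arrays, 12.7% lay between the groups. The median standard deviation within a group was 0.41 in hsf-1 double RNAi and 0.39 in the dve-1-labelled arrays, against 0.26 in empty vector and 0.17 in hsp-6 RNAi. The difference of 3' and 5' control probe sets, a sign of RNA quality, overlapped between the 2 groups. It was 0.04 to 0.25 against 0.04 to 0.17 for Gapdh and 1.11 to 1.74 against 1.50 to 1.77 for actin. For ubiquitin it was larger, at 3.23 to 3.27 against 3.25 to 3.37.

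**Figure D1:**
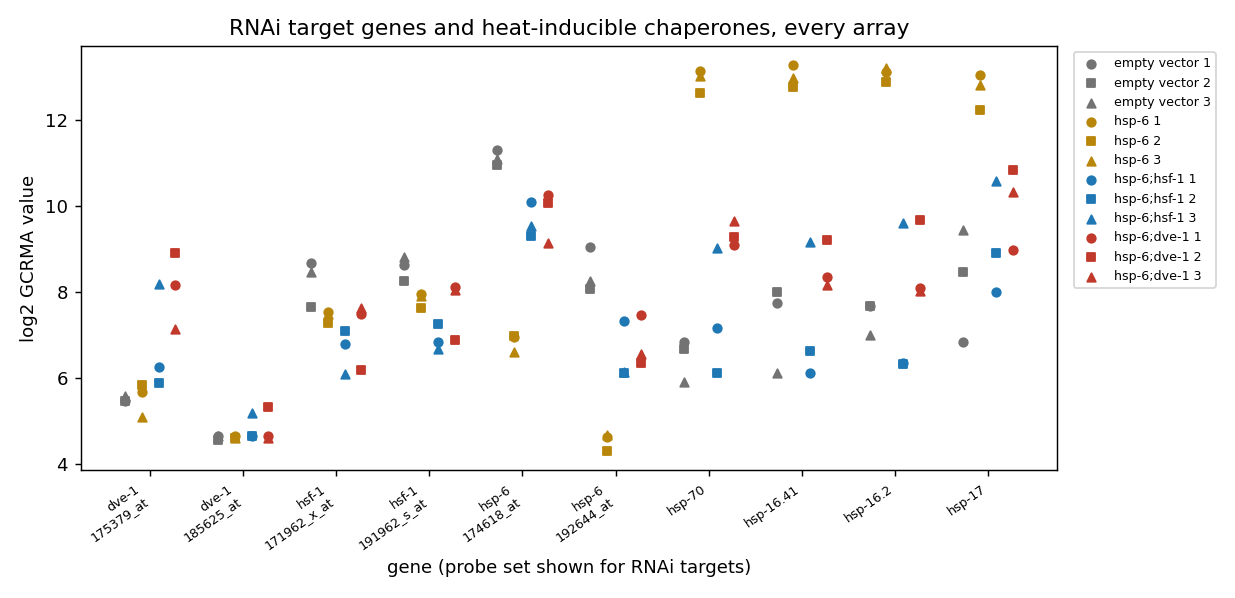
Log2 GCRMA level (vertical axis) of the probe sets of the RNAi target genes and of 4 heat-inducible chaperone genes (horizontal axis) in each of the 12 arrays, with colour for the RNAi group and circle, square and triangle for replicates 1, 2 and 3. The dve-1 probe set 175379_at has its highest reading, 8.90, in a dve-1-labelled array, and hsp-70 lies between 6.10 and 9.01 in hsf-1 double RNAi and between 9.08 and 9.65 in the dve-1-labelled arrays.

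Against this background, 28 probe sets differed at a limma adjusted p below 0.05, which is 0.232% of those tested. Of these, 27 (0.224%) were lower in hsf-1 double RNAi than in the dve-1-labelled arrays and 1 (0.00829%) was higher. At shares this low, few calls fall in gene lists of the sizes read below, so 0 calls says little about a list. The 27 differences ran from -1.63 (3.09-fold) to -5.88 (59-fold), with a median of -3.17 (9.01-fold), while the median over all tested probe sets was -0.03. In all 28 the arrays of the groups did not overlap, as was the case for 442 of all tested probe sets (3.67%), 149 of them higher (1.24%) and 293 lower (2.43%) in hsf-1 double RNAi. At an unadjusted p below 0.05, 277 probe sets differed (2.3%), 82 higher (0.68%) and 195 lower (1.62%), and 316 (2.62%) had a log2 difference over 1 in size. The called probe sets named 21 genes by a single symbol, and 5 probe sets carried several gene entries and are given by their probe set name.

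Most called probe sets were high in the dve-1-labelled arrays and low in the other 9 arrays of the series, hsp-6 RNAi and empty vector included. In 26 of the 28 the lowest dve-1-labelled array lay above the highest of the other 9, and 15 of the 28 were below log2 4 in all 9. Those 15 passed the filter on low levels through the dve-1-labelled arrays alone, so their difference followed in part from the filter. The gene pho-4, above log2 4 in 1 other array, needed the dve-1-labelled arrays as well. Over the whole series, 22 probe sets were above log2 4 in all 3 dve-1-labelled arrays and below it in the other 9, against 2 such probe sets for hsf-1 double RNAi, 24 for hsp-6 RNAi and 4 for empty vector. The deposited levels share a minimum of 2.16, so a difference from an array at or near it is a lower bound.

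The number of calls moved with single arrays and with the fit. It was 16 without empty vector replicate 2, 15 without hsp-6 RNAi replicate 1 or 3, 11 and 14 without hsf-1 double RNAi replicate 1 or 2, and 18 and 17 without dve-1-labelled replicate 1 or 2. The arrays that lay with the other group in a target transcript, hsf-1 double RNAi replicate 3 and dve-1-labelled replicate 2, are called the crossed arrays below. They were also each other's nearest of the 6 double RNAi arrays, at 0.53. Between them the dve-1-labelled array was still higher in dve-1 175379_at (8.90 against 8.18) and in hsf-1 191962_s_at (6.87 against 6.68). Without these 2 arrays, 22 probe sets were called, 14 of them among the 28. The 11 calls that held in each of the 12 fits leaving out 1 array were 173625_s_at, the 3 probe sets of K02E10.4, C26B9.2, K07G5.4, B0244.5, E04D5.4, F57G4.11, gst-39 and clec-5. Of the 28 calls, 13 stood without the filter, 15 with values below log2 4 set to 4 and 14 with the replicate number as a block. Fitting the 6 double RNAi arrays alone left 1 call, 173625_s_at.

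**Figure D2:**
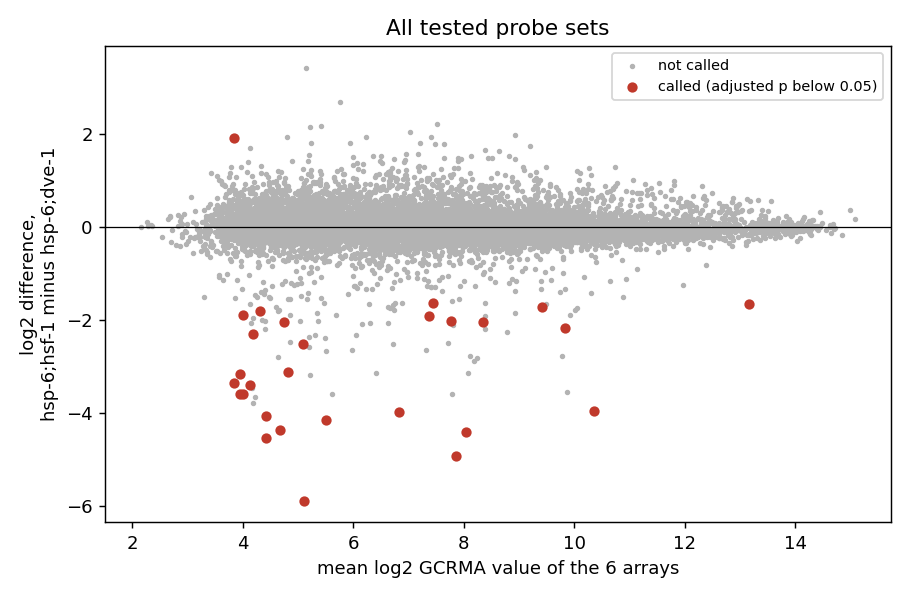
Each point is 1 of the 12057 tested probe sets, by its mean log2 GCRMA level over the 6 double RNAi arrays (horizontal axis) and its log2 difference, hsf-1 double RNAi minus the dve-1-labelled arrays (vertical axis), with called probe sets in red. Of the 28 called probe sets, 27 lie below 0, between -1.63 and -5.88, and 1 lies above it, at 1.92.

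The largest called difference was that of fbxa-75, an F-box gene of the intracellular pathogen response whose product has been described as an adaptor of a CUL-6 ubiquitin ligase. Its level was 2.16, 2.17 and 2.16 in hsf-1 double RNAi and 7.68, 6.13 and 10.32 in the dve-1-labelled arrays, and it was 2.16 in all 6 remaining arrays. The gene was thus above the filter in the 3 dve-1-labelled arrays and in none of the other 9, and these 3 differed widely among themselves. The log2 difference was -5.88 (SE 0.76, adjusted p 0.00865, 59-fold as a lower bound). The call was lost when replicate 1 of hsf-1 double RNAi was left out (adjusted p 0.0561), when no filter was used, with values below log2 4 set to 4 and with the 6 double RNAi arrays alone, and it stood without the 2 crossed arrays (adjusted p 0.00764). Of 171 genes of the F-box A family on the array, a list added after the data were seen, 68 with 1 symbol were tested. Of these 68, 1 was called lower and none higher, against 0.224% called lower over all tested probe sets. The median difference of the 68 was -0.06. Probe set 176166_s_at, which carries several F-box A symbols and so entered no list, was also called, at 6.31, 6.96 and 7.01 against 8.49, 9.09 and 8.74 (difference -2.02, adjusted p 0.0298, and 0.139 without the 2 crossed arrays), and its call held in 2 of the 12 fits that left out 1 array.

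Genes of the pals family, which share the ALS2CR12 signature domain and many of which are induced in the intracellular pathogen response, were read next. Of 23 pals genes on the array, 11 stayed below the filter and 12 were tested. Among the 12, pals-5 and pals-11 were called lower in hsf-1 double RNAi, none was called higher, and 8 had groups that did not overlap. All 8 were lower in hsf-1 double RNAi. Over all tested probe sets, 0.224% were called lower and 2.43% were lower without overlap. The median difference of the 12 was -2.06, against -0.03 over all tested probe sets, but 3 of them passed the filter through the dve-1-labelled arrays alone. In pals-27, pals-32, pals-33 and pals-38, fewer than 3 of the remaining arrays were above the filter, so these genes needed the dve-1-labelled arrays too. The median thus followed in part from the filter. The level of pals-5, a common reporter gene of the response, was 2.16, 2.35 and 2.98 in hsf-1 double RNAi and 5.70, 5.76 and 9.12 in the dve-1-labelled arrays. The groups did not overlap, and the difference was -4.36 (SE 0.73, adjusted p 0.0394). The level of pals-11 was 2.16 in every hsf-1 double RNAi array, against 5.31, 5.64 and 9.12 in the dve-1-labelled arrays, with a difference of -4.53 (SE 0.76, adjusted p 0.0394). In both, dve-1-labelled replicate 3 stood far above replicates 1 and 2. The call of pals-5 held in 3 of the 12 fits that left out 1 array, those without any one dve-1-labelled array, and that of pals-11 held in 2, those without dve-1-labelled replicate 1 or 3. Without the 2 crossed arrays, their adjusted p was 0.0821 and 0.132. The 2 genes lie 2 genes apart in the RefSeq gene order, the only pair within 5 genes of each other among the 21 called genes with a single symbol.

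The other pals genes did not pass the threshold, and those named here apart from pals-29 were chosen after their values were seen. For pals-29 the levels were 2.23, 2.37 and 2.61 in hsf-1 double RNAi and 5.12, 4.59 and 8.44 in the dve-1-labelled arrays (difference -3.65, adjusted p 0.166). For pals-6 they were 5.22, 6.62 and 7.68 against 8.60, 9.12 and 11.20 (difference -3.13, adjusted p 0.558). In both genes every dve-1-labelled array exceeded every hsf-1 double RNAi array. The differences of pals-33, pals-38 and pals-31 were -2.66, -2.58 and -1.45, with adjusted p of 0.892, 0.705 and 0.715 and again no overlap. The antagonistic regulators of the response, pals-22 and pals-25, differed by -0.21 and -0.03. Small as its difference was, pals-22 is among the genes counted above as without overlap, at 5.83, 6.03 and 6.05 against 6.10, 6.22 and 6.21. Across the family, dve-1-labelled replicate 3 had the highest level of the 6 arrays in 10 of the 12 genes, and hsf-1 double RNAi replicate 3 had the highest of the hsf-1 double RNAi arrays in 9, counting leads of more than 0.01. The median level over the 12 genes was 3.76, 3.95 and 5.27 in hsf-1 double RNAi and 5.71, 5.74 and 8.25 in the dve-1-labelled arrays. It ran from 3.31 to 3.51 in empty vector and from 3.25 to 3.65 in hsp-6 RNAi, so all 6 double RNAi arrays lay above the other 6, and the dve-1-labelled arrays lay highest.

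**Figure D3:**
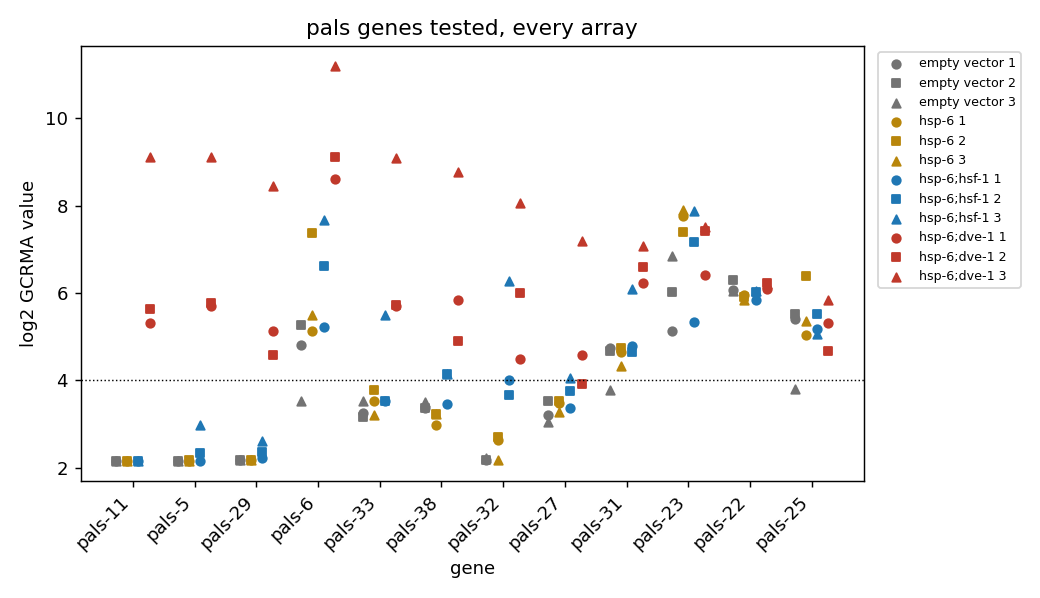
Log2 GCRMA level (vertical axis) of the 12 tested pals genes (horizontal axis, in order of their difference) in each of the 12 arrays, with colour for the RNAi group and circle, square and triangle for replicates 1, 2 and 3; the dotted line is the filter at log2 4. In pals-11, pals-5 and pals-29 the 3 dve-1-labelled arrays are the only ones above the line, and their replicate 3 is the highest point.

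Genes of the intracellular pathogen response outside the pals family were read from a list added after the data were seen, of which 10 of 11 genes on the array were tested. None of the 10 was called, all 10 differences were negative, 2 had groups without overlap, and the median was -0.73. The list did not hold fbxa-75, a gene of the response outside the pals family that was called, as given above. Of all tested probe sets, 2.43% were lower in hsf-1 double RNAi without overlap. The level of eol-1 was 6.25 to 7.26 in hsf-1 double RNAi and 8.64, 8.41 and 11.88 in the dve-1-labelled arrays (difference -2.81, adjusted p 0.892). The level of skr-4, a Skp1-related ubiquitin ligase subunit, was 8.60, 9.10 and 9.78 against 9.80, 10.39 and 11.33 (difference -1.34, adjusted p 0.787). The groups did not overlap in either gene, though those of skr-4 nearly touched, and dve-1-labelled replicate 3 was again the highest. The neighbours in the ligase complex differed less, with -0.81 for the cullin cul-6, -0.65 for skr-3, -0.63 for skr-5 and -0.43 for the RING protein gene rcs-1, and each of these 4 had overlapping groups. F26F2.4 read 2.38, 5.92 and 2.56 in hsf-1 double RNAi and 4.20, 5.53 and 10.71 in the dve-1-labelled arrays, so hsf-1 double RNAi replicate 2 lay inside the range of the latter. F26F2.4 and F26F2.3 passed the filter only with the dve-1-labelled arrays, since each had 1 other array above it.

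The smallest adjusted p belonged to probe set 173625_s_at, 3 probe sets of K02E10.4 and a few genes known by sequence names alone. Probe set 173625_s_at, whose several gene entries all bear the symbol kcnl-2, read 2.38, 2.40 and 2.40 in hsf-1 double RNAi and 6.36, 6.78 and 6.24 in the dve-1-labelled arrays. Its difference of -4.07 (SE 0.25, adjusted p 4.38e-05) stayed past the threshold in every alternative fit in which it was tested. The 3 probe sets of K02E10.4 fell together. Probe set 185576_at read 2.23, 2.19 and 2.24 against 5.63, 6.41 and 5.39 (difference -3.59, adjusted p 0.000418). Probe sets 185492_at and 174389_s_at of the same gene differed by -3.40 and -3.17, with adjusted p of 0.00512 and 0.00601. C26B9.2 was at 2.16 in all 3 hsf-1 double RNAi arrays and at 5.29, 4.99 and 6.28 in the dve-1-labelled arrays (difference -3.36, adjusted p 0.0013). K07G5.4 was at 2.17 in all 3 and at 4.98, 6.49 and 5.78 (difference -3.58, adjusted p 0.0013). In each of these genes the hsf-1 double RNAi arrays lay at or near the array minimum.

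Further called genes known by sequence names followed the same order of levels. B0244.5 was at 3.05 in all 3 hsf-1 double RNAi arrays and at 5.21, 5.16 and 5.66 in the dve-1-labelled arrays (difference -2.30, adjusted p 0.00251). E04D5.4 read 2.94, 3.33 and 3.54 against 5.60, 6.86 and 6.70 (difference -3.12, adjusted p 0.00363). Both had gaps between the groups that exceeded the spread within either group. F57G4.11 read 3.41, 3.40 and 3.47 against 6.53, 7.42 and 8.77 (difference -4.14, adjusted p 0.00601, and 0.0648 without the 2 crossed arrays). F42C5.3 read 4.02, 4.85 and 5.68 against 8.60, 7.44 and 10.43 (difference -3.97, adjusted p 0.0394), and here the hsf-1 double RNAi arrays also lay above those of empty vector, at 2.82, 2.80 and 2.16. F25B3.5, K12H6.12 and T11B7.2 had smaller differences of -1.81, -2.05 and -1.63, with adjusted p of 0.012, 0.0152 and 0.0333. In the 12 fits that left out 1 array, the call of F25B3.5 held in 10, that of K12H6.12 in 8, and those of T11B7.2 and F42C5.3 in 1 each. Without the 2 crossed arrays the adjusted p was 0.0935 for K12H6.12 and 0.155 for T11B7.2.

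The glutathione S-transferase gene gst-39, whose family conjugates glutathione to reactive compounds, read 8.04, 8.93 and 8.16 in hsf-1 double RNAi and 11.46, 12.79 and 12.74 in the dve-1-labelled arrays. Empty vector arrays were at 7.33, 8.45 and 9.37 and hsp-6 RNAi arrays at 9.29, 9.26 and 9.23, so the hsf-1 double RNAi arrays lay within the empty vector range. The difference was -3.95 (SE 0.49, adjusted p 0.00601), and its adjusted p was 0.0935 without the 2 crossed arrays. Of 27 glutathione transferase genes tested, gst-39 was the only one called, against 0.224% called lower over all tested probe sets. The median difference of the list was 0.14. The next in size without overlap, gst-22, differed by -1.16 with an adjusted p of 0.644 and was chosen after its values were seen.

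The C-type lectin gene clec-52 read 5.42, 5.24 and 6.86 in hsf-1 double RNAi and 10.53, 10.79 and 9.44 in the dve-1-labelled arrays. Its difference was -4.41 (SE 0.64, adjusted p 0.02), and the adjusted p was 0.0629 without the 2 crossed arrays. The lectin gene clec-5 read 8.72, 8.45 and 9.10 against 10.44 to 11.34, a difference of -2.17 (SE 0.27, adjusted p 0.00601). In clec-5 the call held in each of the 12 fits that left out 1 array, and in clec-52 it held in 8, those lost being without hsf-1 double RNAi replicate 1 or 2 or without dve-1-labelled replicate 1 or 2. Of 61 lectin genes tested, 2 were called lower and none higher, against 0.224% called lower over all tested probe sets. The median difference of the 61 genes was 0.23. Among those without overlap, clec-173 lay the other way, at 6.36, 7.25 and 7.77 against 5.33, 6.21 and 5.29 (difference 1.51, adjusted p 0.418).

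Further called genes with a symbol were pho-4, tag-10 and nspg-12. The acid phosphatase gene pho-4 read 3.51, 3.53 and 4.47 in hsf-1 double RNAi and 6.02, 7.12 and 5.89 in the dve-1-labelled arrays (difference -2.51, adjusted p 0.0259). The gene tag-10 read 6.06, 6.23 and 6.98 against 8.52, 8.73 and 7.77 (difference -1.91, adjusted p 0.0298). All of these genes had groups without overlap. The nematode-specific peptide gene nspg-12 read 7.89, 9.09 and 8.66 against 10.12, 10.18 and 10.52 (difference -1.73, adjusted p 0.0394), in a family added after the data were seen, of which 9 genes with 1 symbol were tested, with a median difference of 0.48. A second probe set of the family, 177066_at, which carries several nspg symbols and so entered no list, was also called, at -2.04 (adjusted p 0.0376). In the 12 fits that left out 1 array, the call of pho-4 held in 4, that of tag-10 in 2, that of nspg-12 in 1 and that of 177066_at in 2. Without the 2 crossed arrays the adjusted p was 0.173 for nspg-12 and 0.17 for 177066_at.

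**Figure D4:**
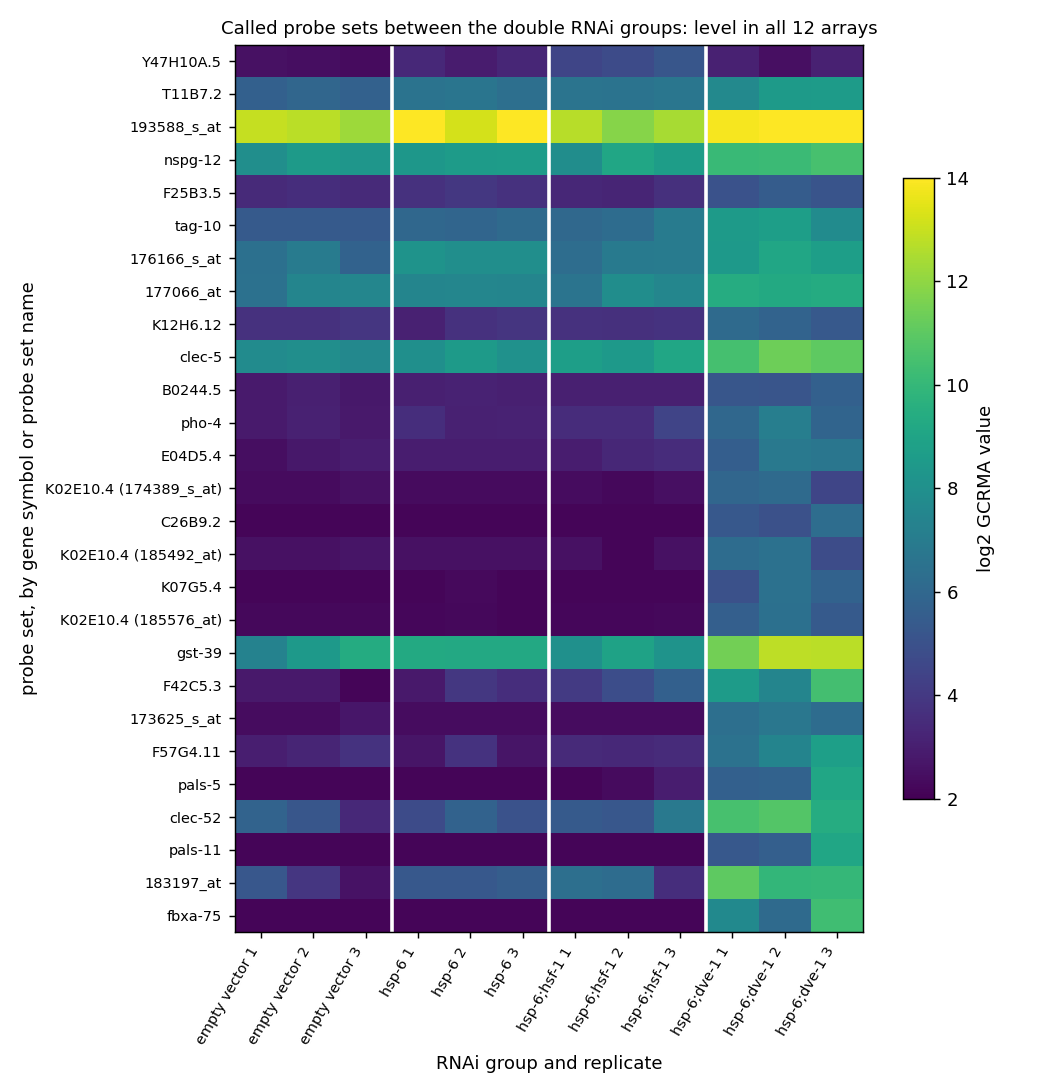
Log2 GCRMA level (colour scale, 2 to 14) of 27 of the 28 called probe sets (rows, ordered by difference) in each of the 12 arrays (columns, white lines between the 4 RNAi groups). In 25 of the 27 rows every dve-1-labelled array is brighter than all 9 other arrays, and the top row, Y47H10A.5, is the 1 probe set called higher in hsf-1 double RNAi.

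Y47H10A.5 was the 1 probe set called higher in hsf-1 double RNAi. It read 4.49, 4.73 and 5.21 there and 3.10, 2.47 and 3.10 in the dve-1-labelled arrays, with hsp-6 RNAi at 3.37, 2.91 and 3.28 and empty vector at 2.56, 2.44 and 2.37. The hsf-1 double RNAi arrays were thus the highest of the series, although close to the filter. The probe set passed the filter through these 3 arrays alone, so its difference followed in part from the filter. The difference was 1.92 (SE 0.29, adjusted p 0.0287, 3.79-fold). The call held in 3 of the 12 fits that left out 1 array, those without empty vector replicate 3, hsp-6 RNAi replicate 2 or dve-1-labelled replicate 3, and its adjusted p was 0.132 without the 2 crossed arrays.

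The largest other differences in this direction without overlap did not pass the threshold. F01D5.1 read 5.19, 7.02 and 7.32 in hsf-1 double RNAi and 3.46, 5.17 and 4.37 in the dve-1-labelled arrays (difference 2.17, adjusted p 0.644). The folate transporter family gene folt-2 read 6.67, 7.72 and 7.19 against 4.95, 5.75 and 5.11 (difference 1.92, adjusted p 1). In folt-2 the hsf-1 double RNAi arrays lay in or below the range of empty vector, which ran from 7.02 to 10.28, and the dve-1-labelled arrays lay below it. The infection response gene irg-8 read 9.66, 10.02 and 10.56 against 8.43, 8.49 and 8.08 (difference 1.75, adjusted p 1). Both probe sets of mab-31 pointed the same way, by 1.78 (adjusted p 0.299) and 1.57 (adjusted p 0.803). The mitochondrial enoyl reductase gene mecr-2 differed by 1.51 (adjusted p 0.474).

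The heat-inducible chaperone genes are direct targets of HSF-1, the factor targeted in 1 of the groups. None of the 4 tested was called, all 4 differences were negative, and their median was -1.22. The level of hsp-70 was 7.16, 6.10 and 9.01 in hsf-1 double RNAi and 9.08, 9.27 and 9.65 in the dve-1-labelled arrays. Its groups did not overlap, but hsf-1 double RNAi replicate 3 lay just below the lowest dve-1-labelled array. The difference was -1.91 (SE 0.57, adjusted p 0.807), with a 95% interval from -3.17 to -0.66 that is not adjusted for the number of tests. The levels of hsp-16.2 were 6.34, 6.32 and 9.60 against 8.09, 9.66 and 8.01, a difference of -1.17 with an interval from -2.82 to 0.49. In hsp-16.41 the difference was -1.26 (interval -2.83 to 0.30) and in hsp-17 -0.89 (interval -2.52 to 0.75), and in all 3 hsf-1 double RNAi replicate 3 lay among the dve-1-labelled arrays. All 6 double RNAi arrays lay below the hsp-6 RNAi arrays, which were at 12.62 to 13.13 for hsp-70 and 12.88 to 13.20 for hsp-16.2. The hsp-6 transcript was itself higher in those 6 arrays than in hsp-6 RNAi, as given above, and its part in the lower chaperone levels was not tested. Among the other chaperones, 0 of 7 further small heat shock protein genes and 0 of 32 constitutive cytosolic chaperone genes were called, with medians of -0.19 and -0.08.

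Genes of the mitochondrial unfolded protein response gave no call among 21 tested, against a share of 0.232% called over all tested probe sets. Their median difference was 0.04, and the largest difference was 0.52, in hrg-9 (95% interval -0.95 to 2.00). The mitochondrial chaperonin gene hsp-60 read 9.44, 9.19 and 8.41 in hsf-1 double RNAi and 9.20, 8.66 and 9.17 in the dve-1-labelled arrays, a difference of 0.00 (interval -0.67 to 0.67). Expression of ubl-5, the ubiquitin-like partner of DVE-1, was 11.11, 10.98 and 10.81 against 11.48, 11.25 and 11.13 (difference -0.32, interval -0.66 to 0.02). It was the 1 gene of the list without overlap, while 2.43% of all tested probe sets were lower without overlap. The interval of ubl-5 bounds its difference to under 1 on the log2 scale, whereas that of hrg-9 does not. None of 65 respiratory chain and ATP synthase genes or 57 mitochondrial ribosomal protein genes was called, with medians of -0.03 and -0.14.

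Fatty acid synthesis and desaturation genes, which encode the enzymes that build and desaturate acyl chains, gave 0 calls among 20. The median was 0.13, and 2 genes had groups without overlap, both higher in hsf-1 double RNAi, as were 1.24% of all tested probe sets. The sterol regulatory element binding protein gene sbp-1 read 7.31, 7.31 and 8.19 against 6.92, 7.21 and 6.81 (difference 0.62, adjusted p 1). The desaturase gene fat-5 read 9.26, 9.29 and 9.30 against 8.92, 8.38 and 8.99 (difference 0.52, adjusted p 1), and both double RNAi groups lay below the hsp-6 RNAi arrays at 10.78 to 11.24. The desaturase gene fat-7 had the largest difference of the list, -0.71 (95% interval -1.96 to 0.55). The fatty acid synthase gene fasn-1 differed by -0.09 (interval -0.72 to 0.54) and the acetyl-CoA carboxylase gene pod-2 by 0.42 (interval -0.19 to 1.03).

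Among defence genes, 2 called probe sets carried several symbols and so entered no list. Probe set 183197_at, whose symbols are all of the saposin-like spp family, read 6.37, 6.24 and 3.58 in hsf-1 double RNAi and 9.94 to 11 in the dve-1-labelled arrays. Its difference of -4.92 (SE 0.77, adjusted p 0.0298) was the second largest of all calls, and the adjusted p was 0.0875 without the 2 crossed arrays. Probe set 193588_s_at, whose symbols are all of the thaumatin-like thn family, read 12.69, 11.83 and 12.45 against 13.82, 14.17 and 13.96 (difference -1.66, adjusted p 0.0371, and 0.247 without the 2 crossed arrays). In 193588_s_at the dve-1-labelled arrays lay in or near the range of hsp-6 RNAi, 13.23 to 14.04. The 2 calls held in 3 and 2 of the 12 fits that left out 1 array. Of 50 antimicrobial and lysozyme genes with 1 symbol tested, 0 were called, 9 had lower and 1 had higher levels in hsf-1 double RNAi without overlap, and the median was -0.32. The shares without overlap over all tested probe sets were 2.43% lower and 1.24% higher. The saposin-like gene spp-12 read 8.82, 9.58 and 5.89 in hsf-1 double RNAi and 12.01, 11.23 and 11.67 in the dve-1-labelled arrays (difference -3.54, SE 1.00, adjusted p 0.646). Here hsf-1 double RNAi replicate 3 stood far below its group. Of 42 UDP-glucuronosyltransferase genes, 0 were called and the median was 0.00, with ugt-21 at 6.89, 8.03 and 6.94 against 8.47, 10.06 and 9.90 (difference -2.19, adjusted p 0.794). The ferritin gene ftn-1, which stores iron, read 9.91, 10.41 and 10.08 against 11.45, 11.77 and 11.68 (difference -1.50, adjusted p 1). In ftn-1 the dve-1-labelled arrays lay in the range of hsp-6 RNAi, 11.41 to 12.15, and hsf-1 double RNAi lay below it. Of 41 cytochrome P450 genes 0 were called, and cyp-35A4 had the largest difference, -2.06 (adjusted p 0.944).

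Tissue and germline marker lists held no call, and the sperm, collagen and muscle lists varied widely within both groups. The median level of 23 major sperm protein genes was 12.87, 11.14 and 12.84 in hsf-1 double RNAi and 12.34, 13.15 and 9.88 in the dve-1-labelled arrays, against 4.87 to 9.27 in empty vector and 4.06 to 7.90 in hsp-6 RNAi. All 23 differences were positive, between 0.32 and 0.78, but no gene had groups without overlap, and the probe sets of these near-identical genes can share transcripts. The median level of 85 cuticle collagen genes was 9.04, 6.32 and 9.38 in hsf-1 double RNAi and 7.93, 9.46 and 6.42 in the dve-1-labelled arrays. Both lists were lowest in hsf-1 double RNAi replicate 2 and in dve-1-labelled replicate 3. Muscle genes followed the same order, at 10.96, 10.11 and 11.32 against 10.75, 11.07 and 9.63, and oocyte and eggshell genes ran from 11.03 to 11.75 and from 11.31 to 11.85. The dve-1-labelled replicate 3 thus had the lowest sperm, collagen and muscle levels of its group and the highest median pals level. In hsf-1 double RNAi, replicate 3 had the highest median pals level of its group, 5.27, and its highest muscle and collagen levels. Its sperm level, 12.84, was just below the 12.87 of replicate 1. The part of tissue makeup in the pals result was not tested. In RNA of whole worms, fewer cells of a type and less RNA per cell cannot be told apart. Vitellogenin genes, the intestinal yolk genes that mark adult hermaphrodites, were at 14.05 to 14.56 in hsf-1 double RNAi and 14.16 to 14.32 in the dve-1-labelled arrays, and of 12 male soma genes on the array none passed the filter.

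**Figure D5:**
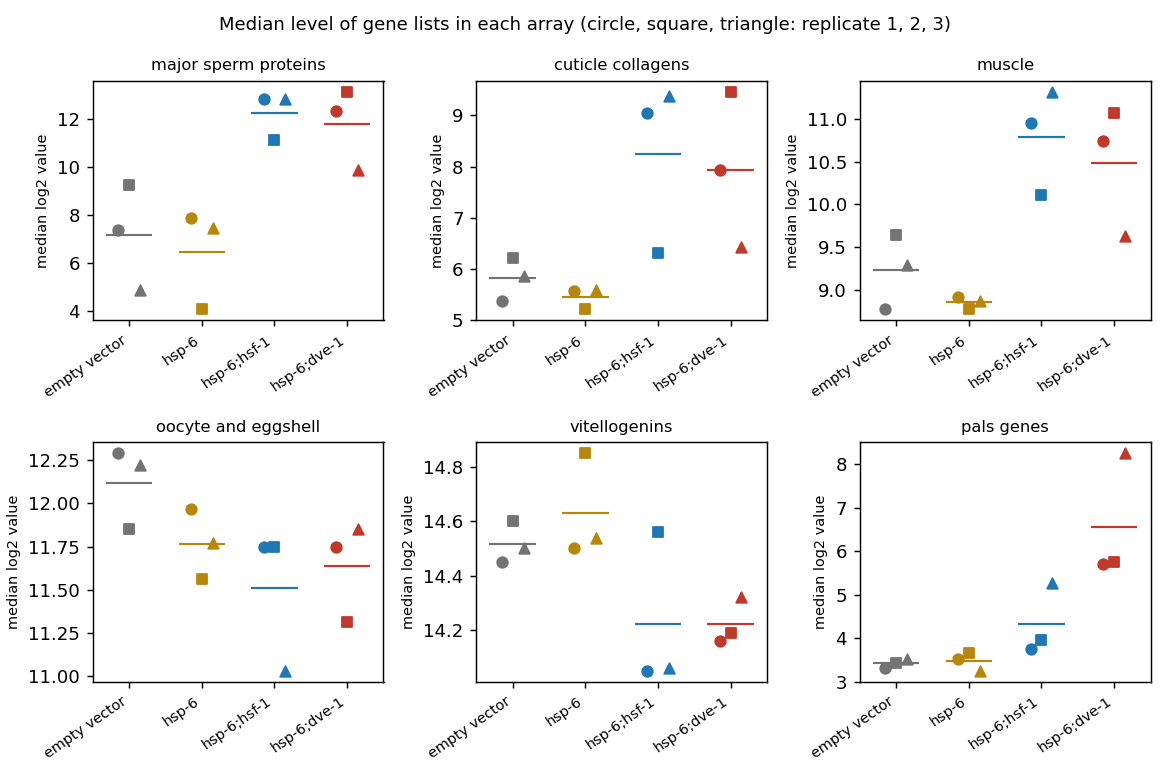
Median log2 GCRMA level (vertical axes, which differ between panels and do not start at 0) of 6 gene lists in each array, by RNAi group (horizontal axis), with a line at the group mean and circle, square and triangle for replicates 1, 2 and 3. Sperm, collagen and muscle lists are lowest in hsf-1 double RNAi replicate 2 and dve-1-labelled replicate 3 within the double RNAi groups, and the pals genes are highest in dve-1-labelled replicate 3, at 8.25.

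The probe sets nearest to the threshold on its outer side had the same direction. The gene mec-19 read 4.47, 4.87 and 4.61 in hsf-1 double RNAi and 6.43, 8.07 and 7.37 in the dve-1-labelled arrays (difference -2.64, adjusted p 0.0518). Probe set 185241_at, with several gene symbols, differed by -2.19 (adjusted p 0.0518) and ZC247.2 by -1.95 (adjusted p 0.0815). The gene droe-8, named for its higher expression under dietary restriction, read 2.16, 2.16 and 3.02 against 4.64, 5.15 and 7.96 (difference -3.47, adjusted p 0.119). In droe-8 the level was 2.16 in all 6 empty vector and hsp-6 RNAi arrays.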

How the data were processed

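Biotin-labelled total RNA of whole worms was hybridised to Affymetrix 3' arrays. The deposited values are log2 levels, and per the submitters' processing notes the authors used GCOS 1.4 and GCRMA, which corrects background, normalizes arrays and summarises each probe set. No source used here states the GCRMA version or settings, and raw intensities were not used. Precision is limited by having 3 arrays a group.

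Gene symbols came from the platform's annotation table. Among 22625 probe sets, 77 were controls, 20766 had a single symbol, 887 had more than 1 and 895 had no symbol. A RefSeq table (assembly WBcel235) held 20701 of those with 1 symbol and gave the gene order. Probe sets above log2 4 in at least 3 of the 12 arrays were tested.

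Group means were fitted to all 12 arrays with limma 3.58.1 in R 4.3.3, with the variance trend (8 residual and 3.16 prior degrees of freedom), and the 2 double RNAi groups were contrasted. All 4 groups entered the fit so that they share 1 estimate of the spread. The median standard deviation was 0.41 and 0.39 in the compared groups, against 0.26 in empty vector and 0.17 in hsp-6 RNAi. The shared estimate can therefore understate the spread of the 2 compared groups. Calls had a Benjamini-Hochberg adjusted p below 0.05 over all 12057 tested probe sets, two-sided. SE, intervals and p-values in the text come from this fit. The script was checked on simulated data. In lists, a gene measured by more than 1 probe set entered with its brightest one on average.

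The comparison, the gene lists and the genes named were chosen with earlier results of these data known, and 3 lists (pathogen response genes outside pals, F-box A, nspg) were added in this work after values were seen. Named were the RNAi targets, called probe sets with 1 symbol, per list its called members or else its largest difference, the 10 largest differences without overlap in each direction, and hsp-17, pod-2, fasn-1, hsp-60, hsp-70 and the hsp-16 genes. Other list members were chosen after their values were seen. The alternatives tried were to drop the filter, to raise it to log2 6, and to use values below 4 set to 4, quantile normalization, median centring, no variance trend, robust fitting, array weights, the 6 arrays alone, a replicate block, hsp-6 RNAi replicates 1 and 3 averaged, 2 arrays left out together, and each array left out in turn. Plots used matplotlib 3.10.9 under Python 3.11.15. 1 of the called genes is not reported here.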

Additional observations from a re-analysis of the deposited data

How the results depend on the processing

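Against 28 calls, 27 of them lower and 1 higher in hsf-1 double RNAi, quantile normalization gave 27, median centring 28, the fit without variance trend 31 and the robust fit 27. The other alternatives gave fewer calls or, in 1 case, more. Without the filter there were 17 calls, 16 lower. With a minimum of log2 6 there were 6, all lower (0 higher), where 14 of the 28 were tested. With values below log2 4 set to 4 there were 16, all lower (0 higher). The 6 arrays alone gave 1, lower, and 0 higher, with 176 probe sets at an unadjusted p below 0.05. Averaging replicates 1 and 3 of hsp-6 RNAi, the closest arrays of the series at a distance of 0.21, into 1 array gave 15, all lower (0 higher). Array weights stopped before converging and gave dve-1-labelled replicate 1 a weight of 0.00; they left 21 calls, 0 higher. A gene-by-gene estimate of the weights, chosen after seeing the data, gave 107 calls, 8 higher and 99 lower. Leaving out each array in turn gave 11 to 25 calls, 11 to 24 lower and 0 to 1 higher, and 11 of the 28 calls held throughout. The cause of these shifts was not tested, apart from the fewer arrays or probe sets that an alternative uses.

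The replicate number as a block gave 15 calls, all lower (0 higher), 14 of them among the 28. Deviations of same-numbered arrays correlated at 0.61, -0.74 and -0.76 for replicates 1, 2 and 3, so the numbers were not taken to pair the arrays. hsf-1 double RNAi replicate 1 correlated best with dve-1-labelled replicate 1, replicate 2 with replicate 3 (0.85) and replicate 3 with replicate 2 (0.84).

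Directions turned in genes with no call, whose reported differences ran from -0.56 (hsp-12.3) to 1.09 (col-91). With low values set to 4, cpg-24 was at 0.00, but all 6 double RNAi arrays lay below log2 4 in it. That setting thus fixed its difference at 0.00, and no direction turned there. Without hsf-1 double RNAi replicate 3 and dve-1-labelled replicate 2 together, dve-1 185625_at was at 0.02, mrps-22 at 0.00 and atg-16.1 at -0.06. With array weights, the 2 hsp-6 probe sets were at 0.24 and 0.15, hsp-12.3 at 0.08, hrg-9 at -0.28 and fasn-1 at 0.02. Over the fits that left out 1 array, the ranges that crossed 0 were -0.21 to 0.21 for dve-1 185625_at, -0.53 to 0.04 and -0.65 to 0.08 for hsp-6, -1.34 to 0.24 for hsp-12.3, -0.17 to 1.22 for hrg-9, -0.21 to 0.30 for hsp-60, -0.57 to 1.47 for cyc-2.2, -0.64 to 0.19 for mrps-22, -0.21 to 2.35 for col-91, -0.14 to 1.43 for msp-49, -0.15 to 1.16 for unc-54, -0.33 to 0.82 for atg-16.1 and -0.16 to 0.00 for fasn-1. Every called gene kept its direction in each of these alternatives.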

Other observations

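Some lysosomal and metabolic genes separated arrays across the group labels. The lysosomal lipase gene lipl-3 read 5.41, 3.53 and 8.36 in hsf-1 double RNAi and 3.20, 5.50 and 2.81 in the dve-1-labelled arrays, against 2.81 to 3.10 in the 6 empty vector and hsp-6 RNAi arrays. The acid sphingomyelinase gene asm-3 read 6.85, 7.77 and 9.72 against 4.16, 9.05 and 5.71. In both genes hsf-1 double RNAi replicate 3 was the highest of its group and dve-1-labelled replicate 2 the highest of the other. Their differences were 1.93 (SE 1.00) and 1.81 (SE 1.26), each with a limma adjusted p of 1. Of 43 fatty acid oxidation and lipase genes 0 were called, with a median difference of 0.10, and of 18 sphingolipid metabolism genes 0 were called, with a median of 0.11. The insulin-like peptide gene ins-7 read 6.54, 7.98 and 7.48 against 4.98, 6.54 and 6.69 (difference 1.27, adjusted p 1), the largest difference among 52 neuronal genes tested, of which 0 were called.

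Outside the calls, 7 of the 22 probe sets that were above log2 4 in the dve-1-labelled arrays alone had an adjusted p of 0.05 or more. ZC196.3 was the largest of these, at 2.30, 2.31 and 2.29 in hsf-1 double RNAi and 4.98, 4.39 and 8.88 in the dve-1-labelled arrays (difference -3.78, adjusted p 0.299). As in the pals genes, replicate 3 was the highest of that group.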
